A study of Mus musculus with 8 samples.

Results

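The cytochrome P450 and aldehyde oxidase genes were followed in 2 brain regions of male mice, cerebral cortex and hippocampus, after the insecticide clothianidin or its vehicle. Every probe set whose platform gene symbol was Cyp followed directly by a digit, or Aox followed by a digit, was taken, which gave 103 of 22206 probe sets, 1 for each gene: 99 Cyp genes, 3 of them with pseudogene symbols, and 4 Aox genes. The mean over all 8 arrays lay above the lowest 33.3% of all probe sets, a limit of 3.94 on the log2 scale, for 37 of the 103 (35.9%), namely 36 Cyp genes and Aox1. The other 66 were counted and described, and entered a comparison only where the limit was lifted as an alternative.

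All mice were males aged 12 weeks, and neither their strain nor any modified allele is stated in the labels used here. The exposed groups had received clothianidin, a neonicotinoid that acts on nicotinic acetylcholine receptors, at 50 mg/kg/day for 2 weeks, the submitters' no observed adverse effect level. The control groups had received the vehicle, 1% DMSO, over the same time. There were 4 groups (control cortex, exposed cortex, control hippocampus and exposed hippocampus) of 2 Affymetrix arrays each. Within a group, values are given below in the order of the numbers in the labels, which were 1 and 6 for control and 3 and 6 for exposed arrays. Nothing in the labels ties the arrays of a group to different animals. The spread behind each p-value is therefore that between arrays and could be technical.

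Cytochrome P450 enzymes are heme proteins that insert an oxygen atom into lipophilic molecules with electrons from NADPH, passed on by reductases and cytochrome b5. Some have a single endogenous substrate, such as a sterol, vitamin D or retinoic acid, while others oxidise fatty acids or foreign compounds with broad and overlapping specificity. In the brain they are known above all for the hydroxylation of cholesterol in neurons, which turns it into a form that can leave the tissue. Aldehyde oxidases are molybdenum cofactor enzymes of the cytosol. Both families act on neonicotinoids: P450 enzymes oxidise and demethylate them, and aldehyde oxidase reduces their nitro group.

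The start regions of 4 of the genes described further on are shown first, because they span the range from CpG-rich to CpG-free. They are the 250 bases before the annotated start, on the strand of the gene and 5′ to 3′, taken from RefSeq on GRCm38.p6: Cyp46a1 at chr12:108334066-108334315 on the plus strand, Cyp2s1 at chr7:25816526-25816775, Cyp4f18 at chr8:72009627-72009876 and Cyp2c38 at chr19:39463076-39463325, these 3 on the minus strand. Capitals mark a GC box (GGGCGG, or CCGCCC where it lies on the opposite strand) or a TATA box (TATAAA).
Cyp46a1: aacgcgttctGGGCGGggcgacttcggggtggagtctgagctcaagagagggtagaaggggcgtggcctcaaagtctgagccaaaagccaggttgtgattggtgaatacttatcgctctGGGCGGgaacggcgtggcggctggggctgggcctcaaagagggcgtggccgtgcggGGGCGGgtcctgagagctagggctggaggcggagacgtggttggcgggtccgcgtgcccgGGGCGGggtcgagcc
Cyp2s1: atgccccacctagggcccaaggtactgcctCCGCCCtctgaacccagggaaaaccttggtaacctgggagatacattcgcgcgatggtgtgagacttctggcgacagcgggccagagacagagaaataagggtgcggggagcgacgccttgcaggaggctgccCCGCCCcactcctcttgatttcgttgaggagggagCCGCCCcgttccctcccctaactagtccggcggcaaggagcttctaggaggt
Cyp4f18: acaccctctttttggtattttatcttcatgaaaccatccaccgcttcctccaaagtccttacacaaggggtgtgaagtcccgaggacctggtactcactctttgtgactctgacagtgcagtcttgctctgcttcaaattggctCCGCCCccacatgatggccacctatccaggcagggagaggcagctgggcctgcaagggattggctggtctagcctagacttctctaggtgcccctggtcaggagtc
Cyp2c38: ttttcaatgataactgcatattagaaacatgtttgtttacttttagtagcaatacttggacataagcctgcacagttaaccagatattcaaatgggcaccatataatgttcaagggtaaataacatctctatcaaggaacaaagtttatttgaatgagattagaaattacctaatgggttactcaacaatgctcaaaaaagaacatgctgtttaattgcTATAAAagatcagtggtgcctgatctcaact
The Cyp46a1 region held 4 GC boxes and 23 CpG dinucleotides, and that of Cyp2s1 held 3 and 15. Cyp4f18 had 1 GC box and 3 CpG. Cyp2c38 had 0 GC boxes, 0 CpG and 1 TATA box, with a GC content of 32.4% against 67.6% for Cyp46a1. Motifs were searched on both strands, with overlapping matches counted.

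Windows of this kind were found for 77 of the 103 members, 25 of the 37 above the limit among them; genes with several starts had several windows. A GC box stood in 34.5% of 29 windows of members above the limit, in 14.3% of 56 windows of members under it and in 32.7% of all 32851 windows. A TATA box stood in 13.8%, 39.3% and 12.4% of these. GCGTG, the core of the element bound by the aryl hydrocarbon receptor with its partner Arnt, stood in 31% of windows above the limit, in 16.1% of those under it and in 28.2% of all. The 4 GCGTG matches of Cyp46a1 are in the window printed above. These matches describe the letters of the windows and show no binding.

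The 8 arrays had median log2 values of 5.21 to 5.40, and the 2 arrays of each group had a Pearson r of 0.9867 to 0.9915 over the 22206 probe sets. With 2 arrays a group, their number sets the precision. Averaged over both arms, 7 of 7 tested markers of hippocampal neurons were higher in hippocampus (19.5% of all probe sets). Of those of cortical neurons, 8 of 9 were lower there (11.9% of all). Dsp, Lct and most values of Spink8 in cortex, and Foxp2 in hippocampus, were under the limit. The limit itself favoured a difference in these. The other tested markers of the 2 lists were above it on all 8 arrays. Control cortex 6 and control hippocampus 1 stood apart in Ttr, the transthyretin of the choroid plexus. It was at 15.41 and 19.51 there and at 4.17 to 7.76 elsewhere. The log2 of the summed level of 11 measured choroid plexus markers was 15.4 and 19.6 on these 2 arrays. On the other 6 it ran from 7.69 to 9.30. On control cortex 6 this sum was nearly that of Ttr alone. The mean log2 value of the 11 markers was 5.96 there and 10.84 on control hippocampus 1, against 4.05 to 4.83 on the other 6. Markers of meninges and fibroblasts, 11 of them measured, had a summed log2 level of 14.2 on control hippocampus 1. It was 12.9 and 13.3 on exposed cortex 3 and exposed hippocampus 3 and 11.2 to 12.6 on the other 5. On control hippocampus 1 Igf2 alone was at 13.64. The mean log2 value of the 11 markers was 7.40 on that array, against 7.24 on exposed cortex 3 and 7.56 on exposed hippocampus 3. It was 6.25 to 6.75 on the other 5. Of these markers 10 were tested for exposure and 0 were called in limma, with median differences of 0.54 in cortex and 0.04 in hippocampus. Their part in the exposure differences was not tested. In bulk tissue, fewer cells of a type and less RNA per cell cannot be told apart.

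Most genes of these families were at the low end of the array's range. Of the 66 members under the limit, 45 were under it on all 8 arrays, 21 had at least 1 array above it and 5 had 4 or more. Of the 37 above the limit, 24 were above it on all 8 arrays and 6 had at least 1 group mean under it. Aox4, Cyp2c65 and Cyp1b1, with means of 3.83, 3.88 and 3.89, were just outside, and Cyp2c68, Cyp2c54 and Cyp2c37, with means of 3.96, 4.07 and 4.14, were just inside. By role, 6 of 12 genes of sterol and steroid metabolism passed, 2 of 6 of vitamin D and retinoic acid, 12 of 29 of fatty acids and eicosanoids, 15 of 51 of mainly xenobiotic metabolism, 1 of 4 aldehyde oxidases and the single unassigned member, Cyp20a1. Genes often named for brain that were under the limit included Cyp1b1, Cyp2e1, Cyp26b1 and Cyp27a1. A low array value is not proof that a gene is silent, since no detection call came with the values.

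**Figure D1:**
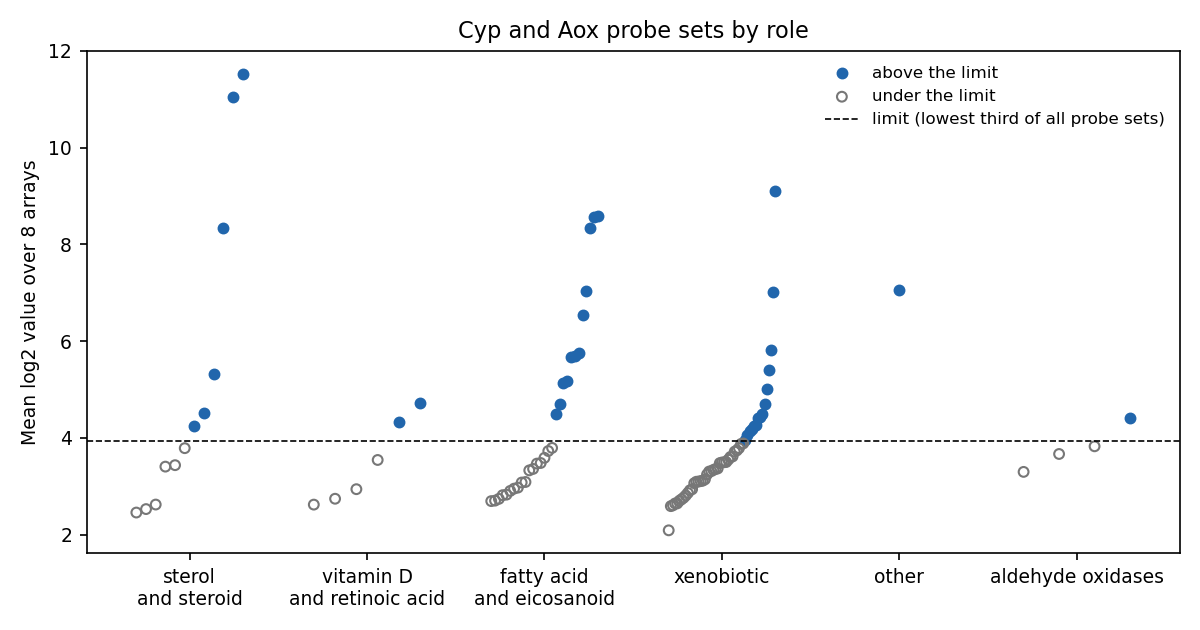
Mean log2 value over the 8 arrays (vertical axis) of each Cyp and Aox probe set, sorted within its role (horizontal axis), with filled points for the 37 above the limit of 3.94 (dashed line) and open points for the 66 under it. Most of the 51 xenobiotic members lie under the line, and values of different probe sets show no order of expression because probes differ in response.

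Neighbouring genes passed unevenly. Runs were formed of protein-coding genes in the RefSeq order of GRCm38.p6, with at most 2 other genes between members. In the run of 7 Cyp2d genes 5 were above the limit, against 5 of 13 in the Cyp2c run. The Cyp2j run had 3 of 7, the longer Cyp4f run 3 of 6 and the run from Cyp4x1 to Cyp4b1 2 of 10. The Cyp3a run had 1 of 8 and the Aox run 1 of 4. Members outside the protein-coding order were in no run, among them Cyp2d37-ps and Cyp2d13, the latter above the limit (mean 7.02). Genes of such runs are close copies of each other, and their probes could share transcripts, so single members of the Cyp2c, Cyp2d, Cyp3a, Cyp2j, Cyp4a and Cyp4f groups are uncertain in identity.

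The first comparison asked whether clothianidin changed these genes in either tissue. No member passed in cortex or in hippocampus. In cortex the differences (exposed minus control) ran from −1.0 for Cyp2s1 to 0.61 for Cyp2j9, with a median of −0.09 against −0.025 for all probe sets tested. In hippocampus they ran from −0.94 for Cyp4f16 to 0.71 for Cyp2j12, with a median of −0.025 against 0.005. The nearest to a call was Cyp2s1 in cortex.

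In cortex 0 of 37 members passed an adjusted p of 0.05 (limma with Benjamini-Hochberg adjustment over all 14804 probe sets tested), beside 0.00675% of all probe sets, which is 1 gene. An unadjusted p under 0.05 was reached by 1 of 37, against 6.18% of all. In hippocampus 0 of 37 passed (limma, as above), beside 0.00675% of all, and 0 of 37 against 5.81% had an unadjusted p under 0.05. The smallest adjusted p among members was 0.74 in cortex and 0.85 in hippocampus. Averaged over the tissues, with the cortex and hippocampus arrays of 1 arm and number averaged first, 0 of 37 passed (0.00675% of all), and 2 of 37 had an unadjusted p under 0.05, against 5.97%. The exposure difference itself was compared between the tissues with the same model, and 0 of 37 members passed (0% of all), while 1 of 37 had an unadjusted p under 0.05, against 3.45%.

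The intervals were wide. The 95% interval of the exposure difference lay within 2-fold either way for 14 of 37 members in cortex (63.2% of all probe sets) and for 18 of 37 in hippocampus (64.9% of all). For the remaining members a 2-fold difference was therefore not excluded by these arrays. The SD between arrays of a group had a median of 0.32 over the members, with a range of 0.19 (Cyp4f37) to 0.72 (Cyp3a13), against a median of 0.29 for all probe sets tested. Averaged over the tissues, 32 of 37 intervals lay within 2-fold, against 89.7% of all.

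**Figure D2:**
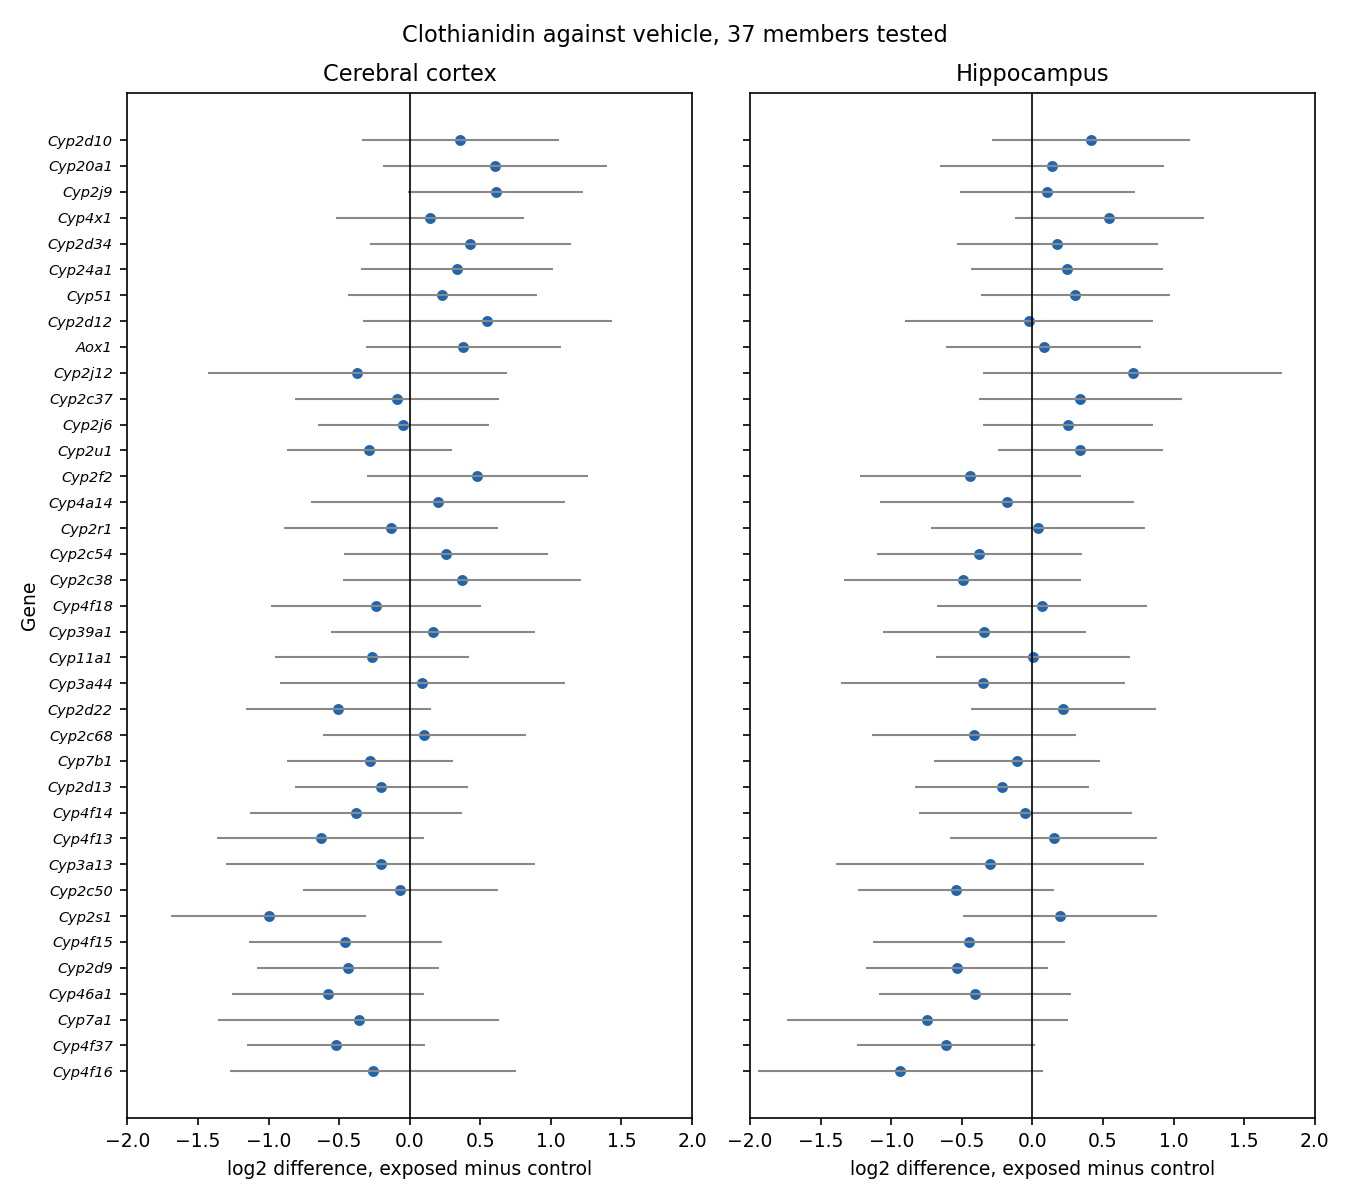
Log2 difference between exposed and control arrays (horizontal axes, log2 scale) for the 37 members tested in cortex (left) and hippocampus (right), in the order of their sum. Points are differences of 2 arrays against 2 and lines are 95% intervals from limma; the line of Cyp2s1 in cortex, from −1.69 to −0.31, is the single one in these 2 panels that does not reach 0.

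Among the sterol genes, Cyp46a1, the neuronal cholesterol hydroxylase that starts the main route of cholesterol out of the brain, was at 12.82 and 12.32 in control cortex and at 12.26 and 11.72 in exposed cortex. In hippocampus it was at 11.25 and 10.71 in control and at 10.90 and 10.25 in exposed arrays. Exposed arrays lay below control arrays in cortex and overlapped them in hippocampus. The differences were −0.58 (SE 0.31, 95% interval −1.26 to 0.10) in cortex and −0.41 (SE 0.31) in hippocampus, with adjusted p of 0.81 and 0.94 in limma. Leaving out 1 array at a time gave −0.85 to −0.31 in cortex and −0.73 to −0.08 in hippocampus.

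Cyp51, the demethylase of the cholesterol synthesis pathway, was at 10.98 and 11.29 in control cortex, 11 and 11.73 in exposed cortex, 10.34 and 11.03 in control hippocampus and 10.90 and 11.08 in exposed hippocampus. Its groups overlapped in both tissues. Cyp39a1, which hydroxylates the product of Cyp46a1 further, was at 5.33 and 5.16, 5.27 and 5.55, 5.08 and 5.93, and 5.07 and 5.26 in the same order of groups, again with overlap in both tissues. The exposure differences were 0.23 and 0.30 for Cyp51 and 0.17 and −0.34 for Cyp39a1, in cortex and hippocampus. Cyp7b1, the oxysterol hydroxylase, differed by −0.28 in cortex and −0.11 in hippocampus, and Cyp11a1, which cleaves the cholesterol side chain to start steroid synthesis, by −0.27 and 0.005. All hippocampal values of Cyp11a1 were under the limit and are not shown to be above background.

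Cyp7a1, the rate-limiting enzyme of bile acid synthesis in liver, was at 3.99 and 5.42 in control cortex, 4.57 and 4.12 in exposed cortex, 5.33 and 4.41 in control hippocampus and 4.02 and 4.23 in exposed hippocampus. Its highest values were on control cortex 6 and control hippocampus 1, the same arrays that were high in Ttr. The exposure difference averaged over the tissues was −0.55 (SE 0.24, unadjusted p = 0.038, adjusted p = 0.83 in limma). Without these 2 arrays, which left 1 control array in each tissue, it was 0.035. As they held the 2 highest Cyp7a1 values, leaving them out had to raise the difference. The part of choroid plexus in the Cyp7a1 difference was not tested. Of the 11 measured choroid plexus markers, 10 were tested, and their median difference in hippocampus was −2.97 with 0 of 10 called by limma. That median rested on 1 array. The mean log2 value of the 11 markers was 10.84 on control hippocampus 1 and 4.83 on each of the other hippocampal arrays.

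**Figure D3:**
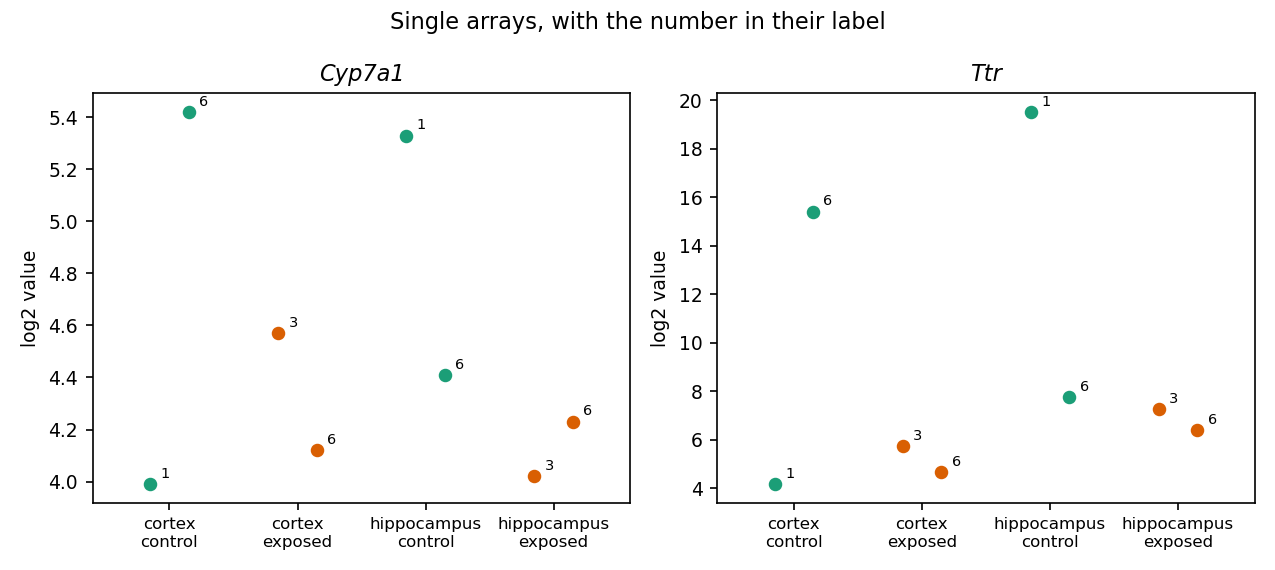
Log2 values of Cyp7a1 (left) and of the choroid plexus gene Ttr (right) on each of the 8 arrays (vertical axes), by group (horizontal axes), with the number in the array's label beside each point. Control cortex 6 and control hippocampus 1 are the highest arrays for both genes, at 5.42 and 5.33 for Cyp7a1 and at 15.41 and 19.51 for Ttr.

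Of the vitamin D and retinoic acid genes, Cyp2r1, a vitamin D hydroxylase of the activating route, differed by −0.14 (SE 0.35) in cortex and 0.04 (SE 0.35) in hippocampus. All its cortex values were under the limit and are not shown to be above background. Cyp24a1, which inactivates vitamin D, differed by 0.34 (SE 0.31) and 0.25 (SE 0.31). Neither passed, and the smallest adjusted p of these 4 values in limma was 0.89. The other 4 genes of this role, Cyp26b1 among them, were under the limit.

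The fatty acid and eicosanoid genes held 9 of 12 cortex differences below 0 (52.9% of all probe sets) and 5 of 12 in hippocampus (48.8% of all), with 0 of 12 called in each by limma. Cyp4f37 was at 5.73 and 5.89 in control cortex, 5.43 and 5.15 in exposed cortex, 6.24 and 5.93 in control hippocampus and 5.63 and 5.32 in exposed hippocampus. Both exposed arrays were below both control arrays in each tissue. Averaged over the tissues the difference was −0.56 (SE 0.23, unadjusted p = 0.032, adjusted p = 0.83 in limma). Cyp4f15, a member of the same run of genes, was at 6.95 and 7.17, 6.38 and 6.83, 7.83 and 7.10, and 6.96 and 7.07 in the same order of groups. It too had no overlap in either tissue, with differences of −0.46 and −0.45 (SE 0.31 in each).

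Cyp4f16, from the same run, had the lowest hippocampal difference, −0.94 (SE 0.46, adjusted p = 0.86 in limma), but its arrays overlapped, at 6.81 and 6.32 in control and 4.86 and 6.40 in exposed hippocampus. Leaving out 1 array moved it to between −1.71 and −0.17, the latter without exposed hippocampus 3. Cyp4f13 differed by −0.63 (SE 0.34) in cortex and by 0.15 in hippocampus. Cyp2j9, a P450 of arachidonic acid known from brain, was at 8.31 and 8.20 in control cortex and 8.65 and 9.08 in exposed cortex. Exposed cortex lay above control without overlap, with a difference of 0.61 (SE 0.28, unadjusted p = 0.053, adjusted p = 0.8 in limma). The hippocampal groups, at 8.80 and 8.26 without and 8.78 and 8.49 with clothianidin, overlapped. Cyp2u1, which hydroxylates long-chain fatty acids, differed by −0.29 and 0.34, and Cyp4x1, a brain P450 with few known substrates, by 0.15 and 0.55, in cortex and hippocampus.

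Cyp2s1, a P450 of epithelia outside the liver, was the xenobiotic member with the largest exposure difference. It was at 6.43 and 6.15 in control cortex and at 5.35 and 5.23 in exposed cortex. In hippocampus it was at 4.75 and 5.11 in control and at 5.45 and 4.80 in exposed arrays. Only control cortex stood apart: both of its arrays were above the other 6. The cortex difference was −1.0 (SE 0.32, 95% interval −1.69 to −0.31, unadjusted p = 0.0082), a level 2-fold lower in exposed arrays, and did not pass (adjusted p = 0.74 in limma). The hippocampal difference was 0.20 (SE 0.32), and that between the tissues was 1.20 (SE 0.45, unadjusted p = 0.020, adjusted p = 1 in limma).

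The other xenobiotic genes showed smaller differences. Cyp2d22, often set beside human CYP2D6, was at 9.61 and 9.47 in control cortex, 9.06 and 9.01 in exposed cortex, 9.25 and 8.34 in control hippocampus and 9.03 and 9.0 in exposed hippocampus. It was lower without overlap in exposed cortex and overlapped in hippocampus, with differences of −0.51 (SE 0.30) and 0.22 (SE 0.30). Cyp2d9, of the same run, was at 5.08 and 4.96, 4.54 and 4.62, 5.57 and 5.44, and 4.71 and 5.23 in the same order, lower without overlap in both exposed tissues (−0.44 and −0.54, SE 0.30 in each). Cyp2d10 had differences above 0 in both tissues, 0.36 and 0.41, with overlapping arrays in each. None of these genes passed in limma, and all their 95% intervals included 0. Their signs therefore do not show that genes of this run differed in direction.

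Aox1, the broadly expressed aldehyde oxidase, was the single member of its family above the limit. It was at 4.42 and 4.16 in control cortex, 4.54 and 4.80 in exposed cortex, 4.46 and 4.17 in control hippocampus and 4.68 and 4.11 in exposed hippocampus. Exposed cortex lay above control without overlap, and the hippocampal groups overlapped. The differences were 0.38 (SE 0.32, 95% interval −0.31 to 1.07) in cortex and 0.08 (SE 0.32, −0.61 to 0.77) in hippocampus, with adjusted p of 0.88 and 0.99 in limma. Neither interval excluded a 1.5-fold higher level.

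The other 3 aldehyde oxidases, which are known from liver, skin glands or nasal tissue, were under the limit. Aox2 was at 3.16 and 4.09 in control cortex, 3.74 and 2.96 in exposed cortex, 3.24 and 3.27 in control hippocampus and 3.48 and 2.45 in exposed hippocampus. Aox3 was at 3.42 and 3.40, 4.17 and 3.94, 3.22 and 3.91, and 4.21 and 3.08 in the same order, and Aox4 at 3.94 and 3.73, 3.85 and 3.96, 3.83 and 3.51, and 3.97 and 3.83. These levels were not compared, since they are not shown to be above background. Cyp20a1, a P450 without a settled substrate, was at 7.06 and 6.17, 7.30 and 7.14, 7.48 and 6.77, and 7.54 and 6.99 in the same order, with differences of 0.60 (SE 0.36) in cortex and 0.14 in hippocampus.

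Counted over single arrays, exposed and control cortex did not overlap for 19 of 37 members, against 38.5% of all probe sets: 7 of these were higher (17.1% of all) and 12 lower (21.4% of all) in exposed arrays. In hippocampus 11 of 37 did not overlap, against 30.7% of all, with 3 higher (16.7% of all) and 8 lower (14% of all). Cyp4f37, Cyp4f15 and Cyp2d9 were the 3 members lower without overlap in both tissues, against 4.17% of all probe sets, and 0 were higher in both (4.17% of all). Differences were below 0 in both tissues for 11 of 37 members, against 29.8% of all, and above 0 in both for 8 of 37, against 27.4%. The shares of members with no overlap were thus 51.4% in cortex and 29.7% in hippocampus.

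The second comparison set hippocampus against cortex. Averaged over both arms, 12 of the 37 members differed (limma, adjusted p under 0.05). Cyp7b1, Cyp4f18, Cyp2r1, Cyp2d10 and Cyp2j6 were higher in hippocampus, and Cyp46a1, Cyp2c38, Cyp2c68, Cyp4f14, Cyp11a1, Cyp2s1 and Cyp4x1 were lower. Of the 8 with both tissues above the limit, the largest differences were those of Cyp46a1, 2.83-fold lower, and of Cyp4f18 and Cyp7b1, 2.41-fold and 2.34-fold higher. The 12 calls stood beside 31.3% of all probe sets, the 5 higher beside 19.5% and the 7 lower beside 11.9%, and 12 of 37 is 32.4%. Cyp11a1, Cyp2c38, Cyp2c68 and Cyp2r1 were above the limit through 1 tissue alone, so the limit itself favoured a difference in these 4. Their values are described below with no fold. Their calls, in the average and in single arms, are counted but do not support a difference. With the limit lifted, 23 of 103 members passed, beside 24.7% of all probe sets. In both arms and in 1 direction, hippocampal and cortex arrays did not overlap for 15 of 37 members, against 38.1% of all probe sets tested. Of these, 8 were higher (23.5% of all) and 7 lower (14.6% of all) in hippocampus.

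After quantile normalization the calls were 3 higher and 7 lower, and the median difference of all probe sets moved from 0.11 as deposited to 0.01; differences below are as deposited. Without exposed hippocampus 6 the count was 7, the lowest of the counts without 1 array. A group from which an array was left out had 1 array, whose spread the fit took from the other groups. Cyp46a1, Cyp7b1 and Cyp4f18 passed whichever array was left out. A call of Cyp4f14, Cyp2d10, Cyp2s1, Cyp2j6 or Cyp4x1 was lost without 1 of the arrays, as given beside each gene. The control and exposed arms alone gave 5 and 6 calls of 37 members, beside 17.7% and 14.5% of all probe sets.

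Cyp46a1 had the clearest difference. Its 4 cortex arrays, with the values given above, lay between 11.72 and 12.82 and its 4 hippocampal arrays between 10.25 and 11.25, so the tissues did not overlap. The averaged difference was −1.50 (SE 0.22, 95% interval −1.98 to −1.02, adjusted p = 0.00032 in limma). It was −1.59 in control arrays (adjusted p = 0.0042) and −1.42 in exposed arrays (adjusted p = 0.01). Its promoter window, with 4 GC boxes, is the first of those shown.

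Cyp7b1 acts on oxysterols and neurosteroids and is known to be prominent in the dentate gyrus. It was at 7.73 and 8.02 in control cortex, 7.55 and 7.64 in exposed cortex, 9.26 and 8.77 in control hippocampus and 8.82 and 8.99 in exposed hippocampus. Every hippocampal array was above every cortex array. The averaged difference was 1.23 (SE 0.19, adjusted p = 0.00049 in limma). In the control arm it was 1.14 (adjusted p = 0.013) and in the exposed arm 1.31 (adjusted p = 0.007).

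Cyp11a1 was at 4.47 and 5.13 in control cortex, 4.59 and 4.48 in exposed cortex, 3.89 and 3.74 in control hippocampus and 3.74 and 3.90 in exposed hippocampus. The tissues did not overlap, but all 4 hippocampal values were under the limit of 3.94 and not shown to be above background. The highest cortex value was on control cortex 6, 1 of the 2 arrays high in Ttr. Of the other sterol genes, Cyp51 differed by −0.41 (adjusted p = 0.17), Cyp39a1 by 0.01 and Cyp7a1 by −0.03, and none of these passed.

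Cyp2r1 was at 3.81 and 3.92 in control cortex, 3.76 and 3.70 in exposed cortex, 5.29 and 4.43 in control hippocampus and 4.64 and 5.16 in exposed hippocampus. All cortex values were under the limit and all hippocampal values above it. The cortex level is thus not shown to be above background. Cyp24a1 was at group means of 4.38 and 4.71 in control and exposed cortex and 4.76 and 5.0 in control and exposed hippocampus, and did not pass (adjusted p = 0.27).

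Among fatty acid and eicosanoid genes, Cyp4f18, which inactivates leukotriene B in white blood cells, was at 4.45 and 4.86 in control cortex, 4.50 and 4.33 in exposed cortex, 5.58 and 5.96 in control hippocampus and 6.25 and 5.43 in exposed hippocampus. The tissues did not overlap. The averaged difference was 1.27 (SE 0.24, adjusted p = 0.002 in limma), 1.11 in the control arm (adjusted p = 0.042) and 1.43 in the exposed arm (adjusted p = 0.016). Microglial markers, 9 of them tested, were higher in hippocampus for 2 (19.5% of all) and lower for 0, with a median difference of 0.41 and a summed log2 level of 12.20 to 12.45 in cortex and 12.77 to 12.97 in hippocampus. Their part in the Cyp4f18 difference was not tested.

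Cyp4f14, a leukotriene hydroxylase best known from liver, was at 6.72 and 6.04 in control cortex, 6.16 and 5.84 in exposed cortex, 5.72 and 4.98 in control hippocampus and 5.39 and 5.21 in exposed hippocampus. Cortex was higher on every array, with an averaged difference of −0.86 (SE 0.24, adjusted p = 0.018 in limma). The call was lost without control cortex 1 (−0.70, adjusted p = 0.086), exposed cortex 3 (−0.79, adjusted p = 0.067), control hippocampus 6 (−0.68, adjusted p = 0.058) or exposed hippocampus 6 (−0.82, adjusted p = 0.056). Its neighbour Cyp4f13 had a difference of 0.36 and did not pass (adjusted p = 0.28).

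Cyp2j6, an epoxygenase of arachidonic acid, was at 8.63 and 7.98 in control cortex, 8.17 and 8.35 in exposed cortex, 8.80 and 8.76 in control hippocampus and 9.09 and 8.97 in exposed hippocampus. Hippocampal arrays were above cortex arrays without overlap. On average the difference was 0.62 (SE 0.20, adjusted p = 0.03 in limma), and the call was kept only without control cortex 1. Without each of the other 7 arrays the difference ran from 0.46 (control cortex 6, adjusted p = 0.13) to 0.67 (exposed cortex 6, adjusted p = 0.053). It was also lost after quantile normalization (0.49, adjusted p = 0.078) after median centring (0.47, adjusted p = 0.085) and without the 2 arrays high in Ttr (0.45, adjusted p = 0.2). Cyp2j9, from the same run, had a difference of 0.02.

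Cyp4x1 was at 7.06 and 6.52 in control cortex, 6.76 and 7.11 in exposed cortex, 6.15 and 5.71 in control hippocampus and 6.55 and 6.40 in exposed hippocampus. Within each arm hippocampus was lower without overlap. The averaged difference was −0.66 (SE 0.22, adjusted p = 0.036 in limma). It was lost without 6 of the 8 arrays, at values from −0.53 (control cortex 1, adjusted p = 0.14) to −0.75 (exposed cortex 3, adjusted p = 0.05). Cyp4f16 (0.82, adjusted p = 0.076) and Cyp2u1 (0.46, adjusted p = 0.084) did not pass, although Cyp4f16 did without exposed hippocampus 3 (1.21, adjusted p = 0.01).

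Of the xenobiotic genes, Cyp2c38 was at 4.83 and 4.60 in control cortex, 5.69 and 4.48 in exposed cortex, 3.65 and 4.05 in control hippocampus and 3.36 and 3.35 in exposed hippocampus. Cyp2c68, of the same run, was at 4.28 and 4.46, 4.09 and 4.86, 3.83 and 3.59, and 3.38 and 3.21 in the same order. Both were lower in hippocampus without overlap, with hippocampal group means under the limit. These hippocampal levels are not shown to be above background. The 3 other members of the run above the limit, Cyp2c37, Cyp2c54 and Cyp2c50, did not pass, with differences of −0.35, 0.51 and 0.18. Cyp2c37 in control hippocampus (mean 3.79) and Cyp2c54 in control cortex (mean 3.685) were under the limit.

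Cyp2d10 was at 5.48 and 5.0 in control cortex, 5.77 and 5.43 in exposed cortex, 5.74 and 6.27 in control hippocampus and 6.24 and 6.60 in exposed hippocampus. Within each arm hippocampus was higher without overlap, and the averaged difference was 0.79 (SE 0.23, adjusted p = 0.019 in limma). It was lost without control cortex 6 (0.67, adjusted p = 0.085), exposed cortex 6 (0.71, adjusted p = 0.069), control hippocampus 6 (0.66, adjusted p = 0.06) or exposed hippocampus 6 (0.70, adjusted p = 0.068), after quantile normalization (0.65, adjusted p = 0.052) and without the 2 arrays high in Ttr (0.81, adjusted p = 0.053). Its neighbour Cyp2d22 differed by −0.38 and did not pass (adjusted p = 0.19), except without control hippocampus 1 (−0.61, adjusted p = 0.032).

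Cyp2s1 was lower in hippocampus by 0.76 on average (−0.76, SE 0.22, adjusted p = 0.022 in limma). The values given above show that the 2 arms contributed unequally: the difference was −1.36 in control arrays (adjusted p = 0.011) and −0.17 in exposed arrays, and the test of that inequality is the one between exposure effects, with adjusted p = 1. Without control cortex 1 the average was −0.69 (adjusted p = 0.082), without exposed cortex 3 −0.73 (adjusted p = 0.066), without control hippocampus 1 −0.67 (adjusted p = 0.057) and without exposed hippocampus 6 −0.60 (adjusted p = 0.082). Without the 2 arrays high in Ttr it was −0.74 (adjusted p = 0.086). Aox1 had a tissue difference of −0.13 (SE 0.22, 95% interval −0.61 to 0.36, adjusted p = 0.71), which excludes a 2-fold difference in either direction.

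**Figure D4:**
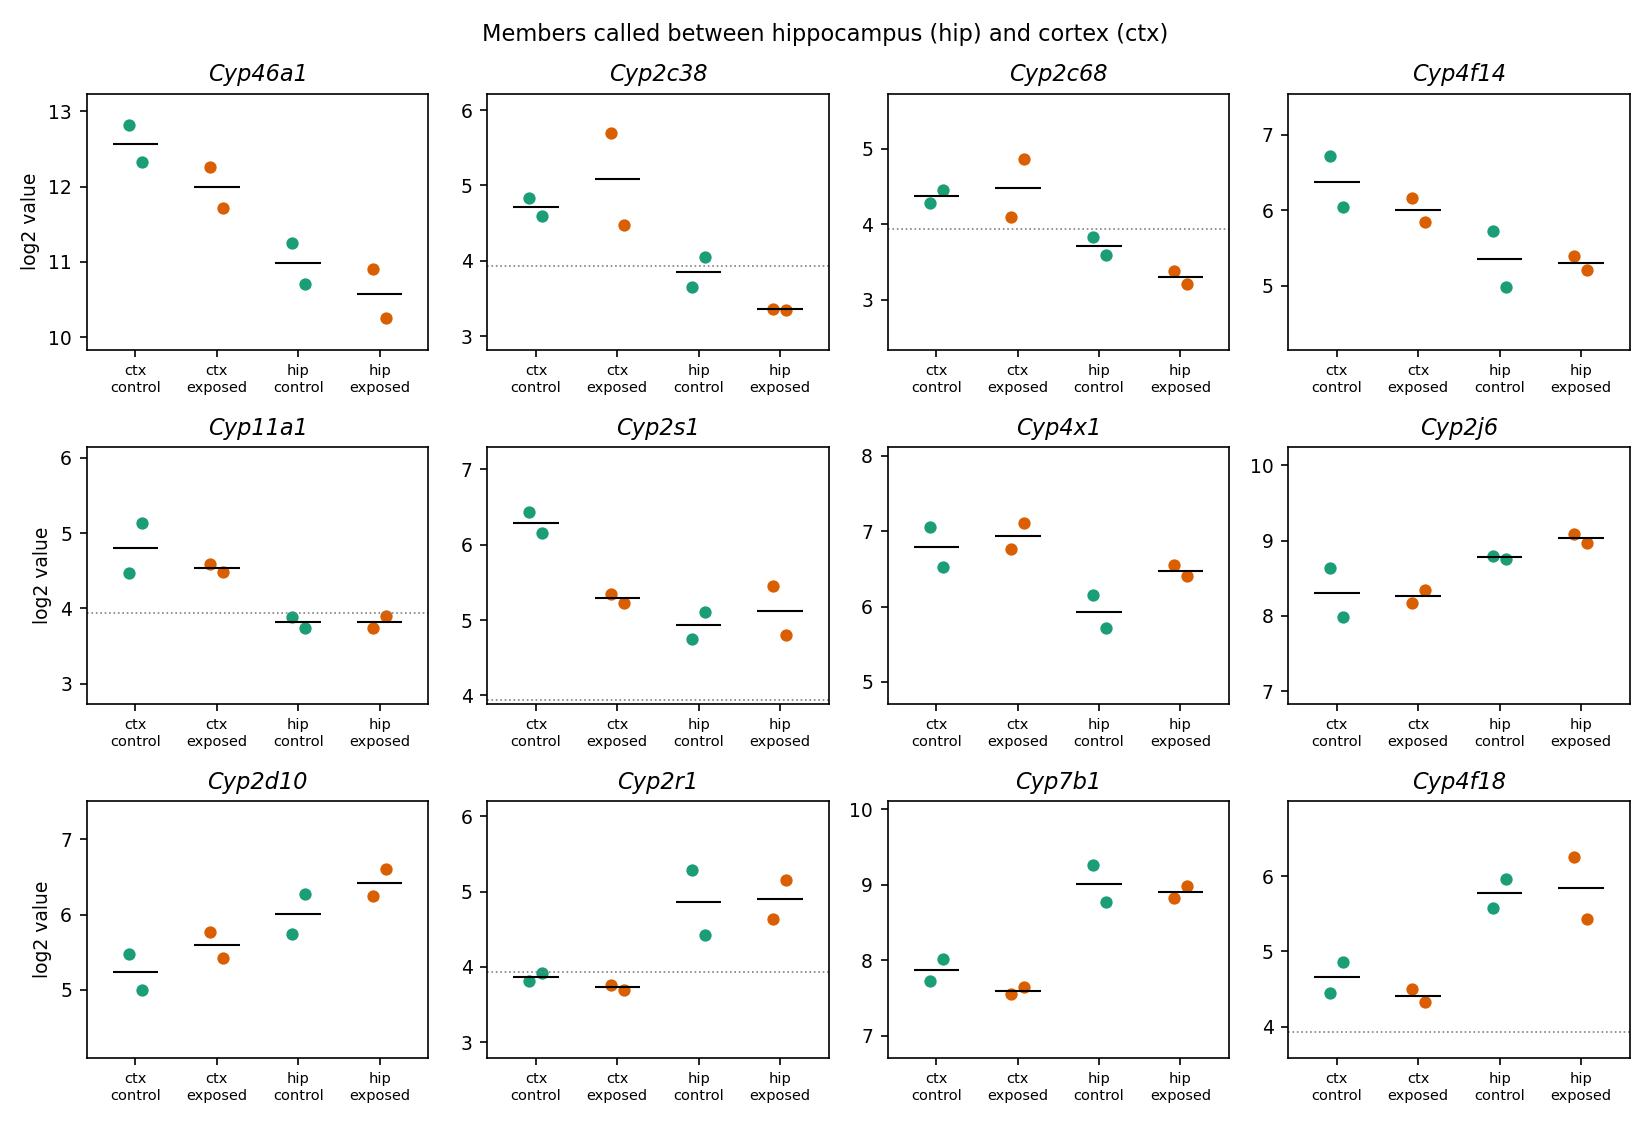
Log2 values (vertical axes) of the 12 members called between hippocampus (hip) and cortex (ctx), on each array of the 4 groups (horizontal axes), with green points for control, orange for exposed, bars for group means of 2 arrays and a dotted line at the limit of 3.94 where it falls in the panel. Cyp46a1 is between 11.72 and 12.82 in cortex and between 10.25 and 11.25 in hippocampus, and the values of Cyp11a1 in hippocampus and of Cyp2r1 in cortex, like the hippocampal means of Cyp2c38 and Cyp2c68, lie under the limit.

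Within the arms taken alone, Cyp46a1, Cyp7b1 and Cyp4f18 passed in both, 3 of 37 members against 10.5% of all probe sets. The control arm also had Cyp2s1 and Cyp11a1, and the exposed arm Cyp2c38, Cyp2c68 and Cyp2r1, of which all but Cyp2s1 had 1 tissue under the limit. The limit itself favoured those calls, that of Cyp2s1 aside. In the control arm the call of Cyp4f18 was lost in 10 of 16 alternatives (adjusted p up to 0.24), 6 of them without 1 cortex or control hippocampus array, those of Cyp7b1 and Cyp2s1 in 3 of 17 each and that of Cyp46a1 in 1 of 17. In the exposed arm Cyp4f18 was lost in 3 of 16 alternatives (adjusted p up to 0.13), and Cyp46a1 and Cyp7b1 in 2 of 17 each. The count of 5 in the control arm was 0 without control cortex 1 and 3 without control cortex 6, exposed cortex 3 or exposed cortex 6. The count of 6 in the exposed arm was 1 without exposed cortex 3 or exposed hippocampus 6, 2 without exposed hippocampus 3 and 3 without exposed cortex 6. Quantile normalization changed the split in the control arm from 2 higher (10.1% of all as deposited) and 3 lower (7.63% of all) to 1 and 5.

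The genes that serve these enzymes were described as 6 lists, which gave 0 calls in either exposure comparison with limma. Of the electron donors and other redox partners, 9 were measured and 8 tested. Cyb5r3, the main reductase of cytochrome b5, was at 13.12 and 12.72 in control cortex, 12.07 and 11.68 in exposed cortex, 14.10 and 13.40 in control hippocampus and 12.97 and 12.53 in exposed hippocampus. Exposed arrays were below control arrays without overlap in both tissues. The differences were −1.04 in cortex (SE 0.29, unadjusted p = 0.0034, adjusted p = 0.74 in limma) and −1.0 in hippocampus (SE 0.29, unadjusted p = 0.0045, adjusted p = 0.77). Between the tissues, Cyb5b, the cytochrome b5 of the mitochondrial outer membrane, was higher in hippocampus by 1.00 (SE 0.16, adjusted p = 0.00064) and Cyb5r3 by 0.85 (SE 0.20, adjusted p = 0.0075). The call of Cyb5r3 was lost without the 2 arrays high in Ttr (0.58, adjusted p = 0.096).

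All 9 tested genes of heme synthesis and breakdown failed to pass between the tissues in limma; the smallest adjusted p were those of Cpox, a late enzyme of heme synthesis (0.68, adjusted p = 0.053), and Hmox2, the constitutive heme oxygenase (0.45, adjusted p = 0.078). Cpox did pass without control hippocampus 6 (0.98, adjusted p = 0.0031) and with array weights (adjusted p = 0.043). Of 7 tested genes of the molybdenum cofactor and other molybdenum enzymes, 0 were higher and 2 lower in hippocampus, beside 19.5% and 11.9% of all probe sets, the shares for each list here. They were Mocs1, which starts the synthesis of the cofactor that aldehyde oxidase needs (−0.80, SE 0.20, adjusted p = 0.011), and Mtarc2, a reductase that carries the cofactor (−0.74, SE 0.19, adjusted p = 0.011). Mocs1 was lost without control cortex 1 (−0.72, adjusted p = 0.05 after rounding) or exposed cortex 3 (−0.64, adjusted p = 0.051), and Mtarc2 without the 2 arrays high in Ttr (−0.71, adjusted p = 0.064).

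Of 13 tested receptors and partners that sense foreign compounds or lipids, 0 were higher (19.5% of all) and 3 lower (11.9% of all) in hippocampus. Arnt2, the Arnt paralogue typical of brain, was lower by 1.18 (−1.18, SE 0.16, adjusted p = 0.00021), Pparg, a fatty acid receptor, by 1.42 (−1.42, SE 0.20, adjusted p = 0.00022) and Arnt by 0.67 (−0.67, SE 0.22, adjusted p = 0.034). The call of Arnt was lost without 6 of the 8 single arrays, at values from −0.51 (exposed hippocampus 6, adjusted p = 0.12) to −0.75 (exposed cortex 3, adjusted p = 0.05 after rounding), and without the 2 arrays high in Ttr. Of 12 tested genes of retinoid handling, 3 were higher and 1 lower, against the same shares of all. The higher genes were Stra6, the receptor that takes up retinol (1.80, adjusted p = 0.00034), Aldh1a1, which makes retinoic acid (1.12, adjusted p = 0.00091), and Dhrs3, which reduces retinal (0.72, adjusted p = 0.019), and the lower was Rbp4, the retinol carrier (−2.20, adjusted p = 6.2e-05). The call of Dhrs3 was lost without control cortex 1 (0.68, adjusted p = 0.068), exposed cortex 6 (0.59, adjusted p = 0.077), control hippocampus 1 (0.62, adjusted p = 0.055) or exposed hippocampus 3 (0.65, adjusted p = 0.061), after median centring (0.57, adjusted p = 0.051) and without the 2 arrays high in Ttr (0.66, adjusted p = 0.097).

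The conjugating enzymes act on products of P450 enzymes. Of 25 tested, 6 were higher and 3 lower in hippocampus, beside 19.5% and 11.9% of all. The higher were Gstm3 (1.905, adjusted p = 1.9e-05 in limma), Gstm6 (1.975, adjusted p = 2.2e-05), Gstm2, Gstm7, Gstm4 and Mgst1. The lower were Mgst3 (−1.35, adjusted p = 0.0014), Sult4a1 (−0.785, adjusted p = 0.0028) and Gstt1. Exposed hippocampal values of Gstt1 were under the limit and all its cortex values above it, so the limit itself favoured a difference. Its call is counted but does not support one. The call of Gstm4 was lost without the 2 arrays high in Ttr (0.78). In the exposure comparisons 0 of 25 passed in limma, with a median difference of −0.34 in cortex and −0.24 in hippocampus, against −0.025 and 0.005 for all probe sets, and 7 of 25 and 6 of 25 differences were above 0, beside 46.4% and 50.6% of all. Sult4a1, a sulfotransferase of neurons, was at 15.49 and 15.29 in control cortex and 14.90 and 14.49 in exposed cortex, a difference of −0.69 (SE 0.22, unadjusted p = 0.0091, adjusted p = 0.74 in limma). Gstt1, a glutathione transferase, was at 4.44 and 4.37 in control hippocampus and 3.31 and 3.40 in exposed hippocampus; the exposed values are under the limit, so no difference is given. Gstm6, of another glutathione transferase class, was at 6.80 and 6.79 and at 5.78 and 5.84 in the same groups (−0.98, SE 0.29, adjusted p = 0.77). None of these 3 overlapped between the arms in the tissue named.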

How the data were processed

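Total RNA of the 8 samples was hybridised to 1-colour Affymetrix whole-transcript arrays. The authors deposited 1 log2 value per probe set, normalized with RMA per the submitters' processing notes; no header names the base, and base 2 is assumed because RMA gives log2. The values run from 1.59 to 19.93, wider than is usual for RMA, so every fold rests on that assumption. The version of RMA is not given in the sources used here. Platform annotation gave 1 gene symbol for 19572 probe sets and none for 2634; all 103 members matched the RefSeq table of GRCm38.p6 by Entrez identifier, which served for names and gene order, and promoter windows came from the RefSeq table of the same build.

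Probe sets with a mean over the 8 arrays in the lowest 33.3% were left out. A linear model with 1 mean per group was fitted to the remaining 14804 with limma 3.58.1 in R 4.3.3 (lmFit, contrasts, eBayes with a trend; 4 residual and 7.918 prior degrees of freedom), two-sided, with Benjamini-Hochberg adjustment in each of 7 comparisons and a threshold of 0.05. For exposure averaged over tissues, the cortex and hippocampus arrays of each arm and number were averaged first. The fit was tested on simulated data. Values named without a comparison of their own are log2 levels, and differences of these are log2 differences.

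Members called in a comparison, up to 5 per direction with unadjusted p under 0.05, every Aox gene and a list of P450 genes of brain interest were named; every other gene, or comparison of a gene, with values in the text was picked after these were seen. Of the other lists, members called between the tissues averaged over both arms, or else the 2 with the smallest p there, were named. Members, roles and pathway and marker lists were chosen with earlier results of these data known. The alternatives were no filter, a stricter filter, quantile normalization, median centring, no trend, array weights, fits to 1 tissue or arm, leaving out single arrays or the 2 arrays high in Ttr, and a replicate block.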

Additional observations from a re-analysis of the deposited data

How the results depend on the processing

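In the exposure comparisons 0 members passed under any alternative run (limma; 0 to 6 had an unadjusted p under 0.05, by comparison and alternative). For the tissues, with 5 calls in control, 6 in exposed and 12 on average as reported, leaving out the lowest 50% of probe sets gave 3, 2 and 7 calls, no filter gave 23 on average (24.7% of all probe sets; 11 of the 66 under the limit, 16.7%, against 15% of all under it), and leaving out the 2 arrays high in Ttr gave 2 in control. Leaving out each array in turn gave 0 to 5 calls in control, 1 to 6 in exposed and 7 to 11 on average; a group left with 1 array is assumed to vary like the others, and without the 2 arrays high in Ttr the control tissues are 1 array against 1. With the replicate block the counts were 6, 6 and 13, Cyp4f16 being the added call on average (adjusted p = 0.018), and Cpox and Hmox2 passed too (adjusted p = 0.025 and 0.017). Same-numbered arrays had deviations correlated at −9e-04 in control and 0.276 in exposed pairs. With 2 arrays a group, both pairs of an arm give the same value by construction. These values therefore cannot decide whether the numbers mark pairs. Exposed and control arrays both hold a number 6, but a mouse had either clothianidin or vehicle, so exposure allowed no paired analysis.

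Leaving out 1 array moved 16 of 20 member exposure differences in cortex and 20 of 21 in hippocampus, of those recomputed, by over 1.5 times or past 0. Sign changes were all of uncalled values. Without the 2 arrays high in Ttr, exposure differences were −0.125 for Cyp4x1 and 0.065 for Cyp11a1 in cortex, −0.04 and 0.135 for Cyp51 and Cyp7b1 in hippocampus and 0.035 for Cyp7a1 on average, and tissue differences were 0.10 for Cyp7a1 and −0.14 for Cyp2j9; the cause was not tested. Quantile normalization and median centring gave tissue differences of −0.1175 and −0.1425 for Cyp39a1 and of −0.1152 and −0.1275 for Cyp2j9, as the median of all probe sets moved. Without single arrays, exposure differences in cortex ran from −0.125 to 0.415 for Cyp4x1, −0.135 to 0.595 for Cyp51, −0.665 to 0.145 for Cyp4f16 and −0.595 to 0.065 for Cyp11a1. In hippocampus Cyp24a1 ran from −0.08 to 0.57, Cyp11a1 from −0.075 to 0.085, Cyp2j12 from −0.14 to 1.56, Cyp2s1 from −0.13 to 0.52, Cyp51 from −0.04 to 0.65, Cyp7b1 from −0.355 to 0.135, Cyp39a1 from −0.765 to 0.085, Cyp2d22 from −0.235 to 0.675, Cyp2j9 from −0.165 to 0.375, Cyp4f13 from −0.15 to 0.45, Cyp20a1 from −0.215 to 0.495, Cyp2r1 from −0.39 to 0.47 and Aox1 from −0.205 to 0.365. Tissue differences ran from −0.205 to 0.22 for Cyp39a1, −0.385 to 0.33 for Cyp7a1, −0.1125 to 0.1575 for Cyp2j9 and −0.2675 to 0.0175 for Aox1. Of the single-gene values recomputed, 1638 kept direction and side of the threshold, 107 lost a call, 19 gained one and 47 changed sign. Signal over background was not available, so low members have no floor.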

Other observations

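Cyp26b1, which breaks down retinoic acid, was under the limit but was at 3.31 and 2.77 in control cortex, 2.91 and 3.24 in exposed cortex, 3.89 and 3.98 in control hippocampus and 3.76 and 4.50 in exposed hippocampus. Every hippocampal array was above every cortex array. Cyp27a1, a sterol hydroxylase of mitochondria, was at 3.38 and 4.14, 3.74 and 3.75, 3.36 and 3.19, and 2.94 and 3.0 in the same order of groups, and all 4 hippocampal values were below all 4 in cortex. Cyp1b1, at 3.65 and 4.28, 3.52 and 2.91, 4.39 and 4.02, and 4.54 and 3.78, overlapped between the tissues, and Cyp2e1 stayed between 3.41 and 3.85 on all 8 arrays. None of these levels is shown to be above background, so no difference is given.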
